A study of Homo sapiens with 20 samples.

Results

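DOHH2 cells kept in the solvent DMSO were compared at 18 h and at 8 h, with no compound added beyond the vehicle. DOHH2 is an established human B cell lymphoma line, which the labels give as a diffuse large B cell lymphoma line. The comparison used 5 of the 20 libraries of the study, chosen by their labels: 3 at 8 h (replicates 1, 2 and 3) and 2 at 18 h (replicates 1 and 3). The other 15 libraries hold DOHH2 with the compound labelled TK, and the lymphoma line U2932 with TK or DMSO, at the same times. From these, 3 DOHH2 libraries with TK at 8 h and 3 at 18 h, and 3 U2932 libraries in DMSO at 8 h and 1 at 18 h, serve below to show where the change with time recurs. Polyadenylated RNA was sequenced. The labels give no genotype, passage, seeding density or dose. Nothing in them says whether each replicate came from its own culture. The p-values therefore reflect only how far these libraries spread, which can be technical. Anything else that differed between the collections at 8 h and 18 h cannot be told apart from the time itself.

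Many B cell lymphoma lines carry active NF-kB, a family of dimeric transcription factors that inhibitor proteins hold in the cytoplasm until a signal releases them. Released NF-kB switches on survival factors, chemokines and costimulatory receptors, and also its own inhibitors, which closes a feedback loop. Hypoxia-responsive genes follow HIF, a transcription factor that is degraded while oxygen is plentiful. The germinal centre is the site in lymphoid tissue where B cells divide and mutate their antibody genes.

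The 5 libraries held 31010685 to 46098646 counts in genes and detected 19855 to 23002 genes. A first principal component (37.7% of the variance of the 2000 most variable genes) separated the times. The second (31.6%) set 8 h replicate 1 apart from 8 h replicates 2 and 3. Counts without a unique alignment were 29.53 to 34.28% of all counts at 8 h and 26.46 to 27.35% at 18 h, and mitochondrial genes took 5.823 to 6.042% against 5.274 to 5.616% of the counts in genes. Ambiguous counts were 2.378 to 2.46% of all counts at 8 h and 2.53 to 2.62% at 18 h. The groups did not overlap in any of these shares (exact permutation test, two-sided p = 0.2 for each, the smallest that 3 against 2 libraries allow). The part of these shares in the results was not tested. Levels are given as CPM (counts per 1000000 counts in genes, scaled by TMM factors) in the order of the replicates, and are compared between libraries, never between genes. The B cell genes checked were present in every library: MS4A1 (CD20) was at 50.4 to 112 CPM, CD79A at 331 to 515, CD79B at 93.2 to 175 and PAX5 at 147 to 209. MME (CD10), a germinal centre surface marker, was also present. BCL6, the germinal centre repressor, was close to absent at 0 to 0.228 CPM, while the U2932 libraries in DMSO had 377 to 409 CPM. Of the antibody constant genes, looked at after the other values, IGHG4 was at 1157 to 2047 CPM and IGLC3 at 1463 to 2365 CPM in the 5 libraries, and IGHM and IGKC were at 0.168 to 3.3 and 0.12 to 7.02 CPM. In the U2932 libraries in DMSO IGHM and IGKC were at 1060 to 3672 and 1222 to 1750 CPM. IGHG4 and the other IGHG genes resemble each other, as do IGLC3 and the other IGLC genes. The split of counts within each of these sets is uncertain. The identity of the line was not checked beyond these genes. Outside the 5 libraries, DOHH2 TK 18 h replicate 1 stood apart with 56.63% of its counts without a unique alignment.

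Between 8 h and 18 h in DMSO, the genes that fell included many known targets of NF-kB: feedback inhibitors, survival factors, chemokines and costimulatory receptors. A smaller set rose, among them the germinal centre marker MME, the transcription factor KLF2 and some hypoxia-responsive genes. Of 16478 genes tested, 104 passed an adjusted p of 0.05 (edgeR's quasi-likelihood test, Benjamini-Hochberg), which is 0.631% of the genes. There were 80 falls (0.485%), with log2 changes from -3.50 to -0.61, and 24 rises (0.146%), with log2 changes from 0.64 to 5.07. In all 104 the 18 h libraries lay entirely on one side of the 8 h libraries, and so did 18.7% (above) and 15.8% (below) of all genes tested. At an unadjusted p of 0.05, 858 genes were higher (5.21%) and 928 lower (5.63%), and the median log2 change of all genes was 0. With only a single library left at 18 h, assumed to vary like the other groups, no gene passed. Without 18 h replicate 1 the count was 0, with 964 genes at an unadjusted p under 0.05 and a lowest adjusted p of 0.0896 among the 104. Without 18 h replicate 3 it was 0, with 1148 genes and a lowest adjusted p of 0.0701. Without 8 h replicate 2 the count was 11, and all 104 genes kept their direction in each of the 5 fits that left out a library. Without both DOHH2 TK replicate 1 libraries, which enter this contrast only through the shared spread and scaling, the count was 303 and held all 104. DESeq2 gave 280 genes and limma voom with library weights 1849 (997 higher and 852 lower), against 43 when only DOHH2 libraries were fitted.

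**Figure D1:**
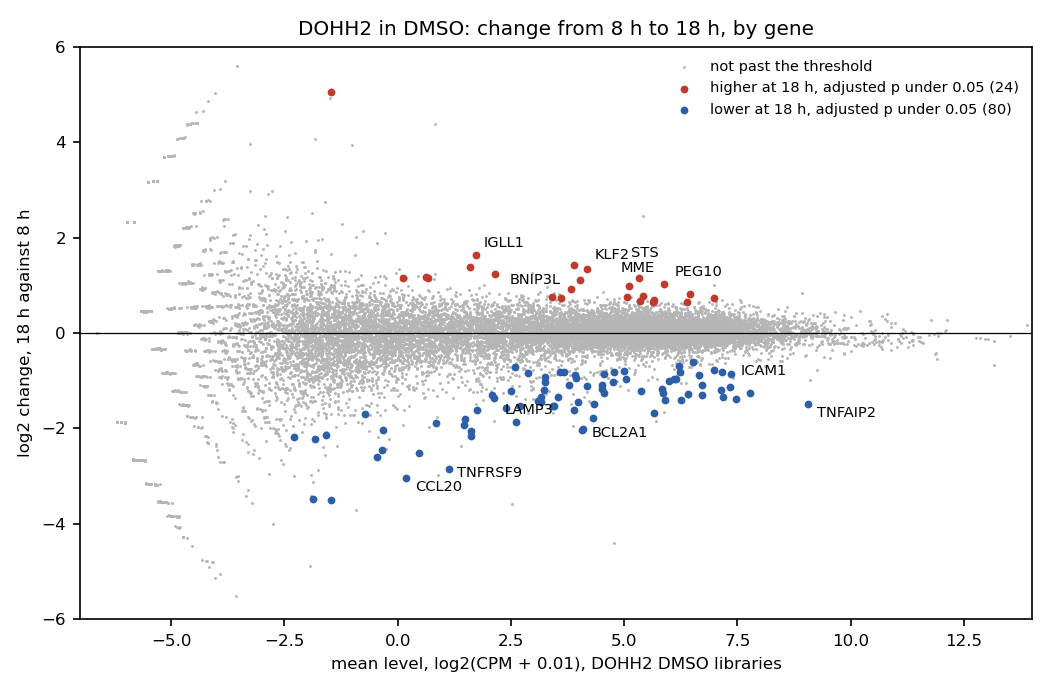
Each point stands for a gene (16478 in all), with its mean level in the 5 DOHH2 DMSO libraries on the x axis (log2 of CPM + 0.01) and its log2 change from 8 h to 18 h on the y axis; red points rose (24), blue points fell (80). Falls reach from -3.50 to -0.61 and occur from low levels up to that of TNFAIP2 (603 to 973 CPM at 8 h).

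Some NF-kB subunits and inhibitors fell. On a list of 15 of them, 6 fell (0.485% of all genes tested fell), 0 rose and 9 did not pass, with a median log2 change of -0.38 against 0 over all genes. The best known of them, NFKBIA (IkB-alpha, which traps NF-kB in the cytoplasm; chr14:35401511-35404749), was at 145, 161 and 127 CPM at 8 h and at 63.9 and 70.7 CPM at 18 h. The 2 groups were far apart, and the log2 change was -1.10 (SE 0.168, adjusted p = 0.0046). TNFAIP3 (A20, a ubiquitin-editing enzyme that shuts the pathway off; chr6:137867188-137883312) had 170, 175 and 107 CPM and then 66.5 and 55.1 CPM. Its lowest 8 h library, replicate 3, still lay well above both 18 h libraries (log2 change -1.31, SE 0.253, adjusted p = 0.017). NFKBIE, another IkB protein, went from 79.7, 96.4 and 76.8 CPM to 42.8 and 41.2 CPM, a log2 change of -1.01 (adjusted p = 0.0347). BCL3, a nuclear IkB-like cofactor, went from 18.9, 20.5 and 16.4 CPM to 7.99 and 9.39 CPM (log2 change -1.09, adjusted p = 0.0397). In both, the 18 h libraries were close to each other and below every 8 h library.

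Among the subunits, those of the alternative branch of the pathway passed the test. NFKB2 (the p100 precursor of p52; chr10:102394110-102402529) was at 200, 214 and 171 CPM at 8 h and at 82.8 and 87.4 CPM at 18 h, a log2 change of -1.20 (SE 0.265, adjusted p = 0.0372). RELB, the partner of p52, was at 52.2, 67.3 and 53.5 CPM and then at 22.2 and 27.7 CPM, a log2 change of -1.21 (SE 0.238, adjusted p = 0.0202). In neither gene did the times overlap. The subunits of the classical branch did not pass: NFKB1 had a log2 change of -0.20, RELA of -0.16 and REL of 0.11, with adjusted p of 0.599, 0.73 and 0.966. The difference between the branches was not tested. NFKBID, a further nuclear IkB protein outside the list, also fell (38.1, 39.3 and 31.2 CPM, then 18.7 and 16.6 CPM, log2 change -1.04, adjusted p = 0.0137).

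**Figure D2:**
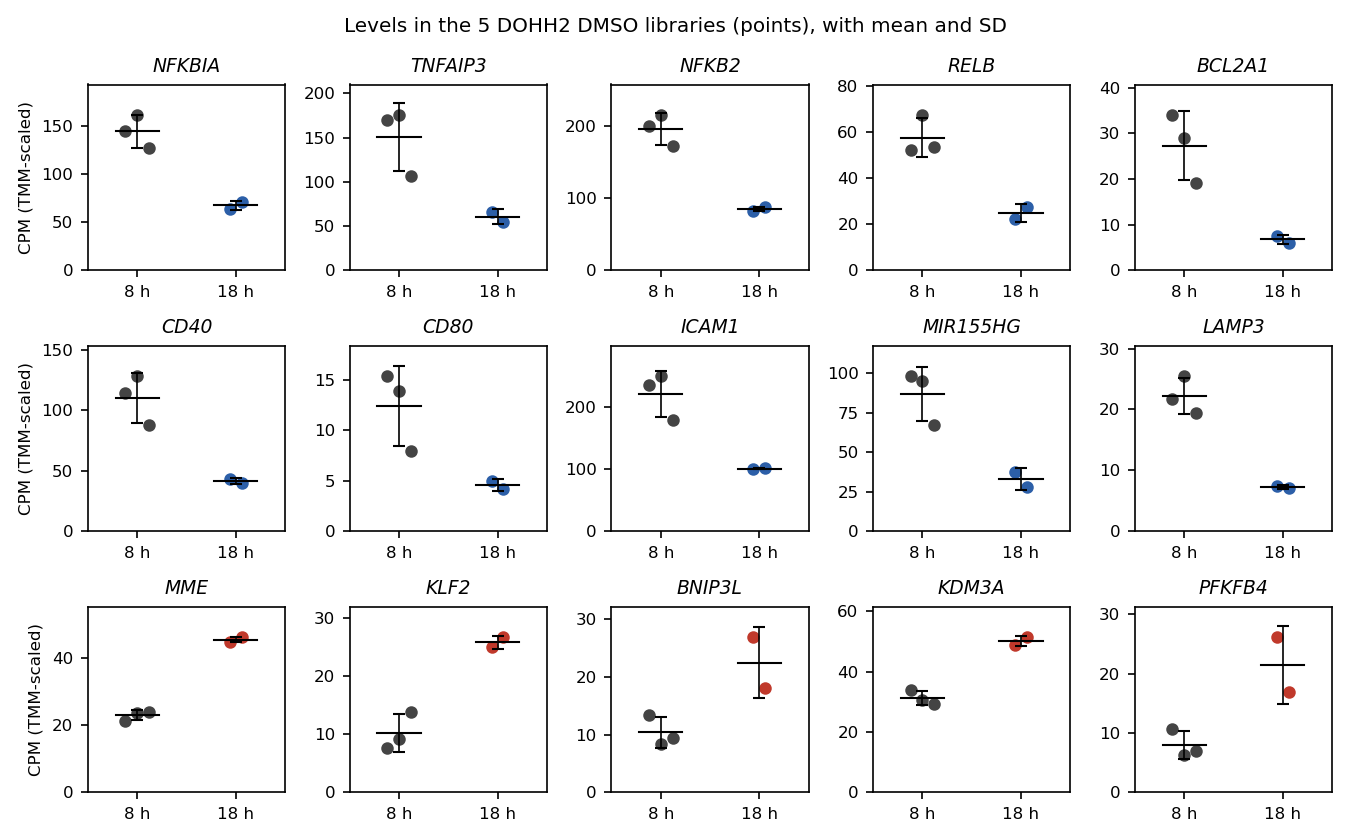
Levels in TMM-scaled CPM (y axes start at 0) of 15 genes in the 3 DOHH2 DMSO libraries at 8 h (grey points) and the 2 at 18 h (blue for falls, red for rises), with the mean as a bar and the SD as an error bar. In every panel the 18 h points lie on one side of the 8 h points, from NFKBIA (127 to 161 against 63.9 and 70.7 CPM) to MME (21.2 to 24 against 44.8 and 46 CPM).

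Promoter sequence gives context for these falls. The NF-kB consensus motif of 10 bases was searched on both strands in the 250 bases upstream of the RefSeq start, and was found in 14 of the 62 falls with a promoter in the table (22.6%) and in 1 of 15 rises (6.67%). It was present in 616 of 10648 promoters of all genes tested (5.79%) and in 5.21% of all promoters. The falls were themselves chosen by the measured change, so these shares are a description, and a match is not evidence of binding. Below are 4 promoter stretches of falls, of an inhibitor, a survival factor, a chemokine and an adhesion receptor, with the matches in capitals and the strand of the gene (RefSeq, GRCh38.p14):
NFKBIA, chr14:35404796-35404915, minus strand: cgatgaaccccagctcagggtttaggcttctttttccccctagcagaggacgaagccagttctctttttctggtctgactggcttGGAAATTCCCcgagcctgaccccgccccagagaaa
BIRC3, chr11:102317264-102317383, plus strand: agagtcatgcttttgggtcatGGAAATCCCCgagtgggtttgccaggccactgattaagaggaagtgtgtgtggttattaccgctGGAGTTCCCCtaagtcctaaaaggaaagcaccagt
CXCL10, chr4:76023585-76023704, minus strand: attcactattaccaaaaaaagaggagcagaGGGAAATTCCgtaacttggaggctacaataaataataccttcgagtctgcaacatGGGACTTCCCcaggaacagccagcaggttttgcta
VCAM1, chr1:100719595-100719714, plus strand: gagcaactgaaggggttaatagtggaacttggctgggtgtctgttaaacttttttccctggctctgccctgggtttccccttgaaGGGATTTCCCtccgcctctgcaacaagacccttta
A match starts 81 bases upstream of the NFKBIA start, and BIRC3 and CXCL10 hold 2 matches each.

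Survival factors, chemokines and receptors that NF-kB is known to switch on were among the falls. Of 26 such effector genes, 25 could be tested: 10 fell, 0 rose and 15 did not pass, and the median log2 change was -1.19 against 0 over all genes. In 21 of the 25 both 18 h libraries lay below all 8 h libraries (15.8% of all genes tested did). BCL2A1 (chr15:79960889-79971446), a BCL2 relative that blocks cell death, was at 33.9, 28.9 and 19.1 CPM at 8 h and at 7.45 and 6.11 CPM at 18 h. It had the largest fall among the 10 (log2 change -2.01, SE 0.278, adjusted p = 0.0041). The times were clearly apart, since the lowest 8 h library (19.1 CPM) lay above the highest 18 h library (7.45 CPM). EBI3, a subunit of dimeric interleukins, had 28.1, 38.4 and 25.3 CPM at 8 h and 9.25 and 8.56 CPM at 18 h (log2 change -1.78, SE 0.304, adjusted p = 0.0086). TNFAIP2, a TNF-induced protein, was at 799, 973 and 603 CPM and then at 257 and 305 CPM, a log2 change of -1.49 (SE 0.251, adjusted p = 0.0085).

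BIRC3 (cIAP2), an inhibitor of apoptosis, went from 17.3, 12.4 and 9.61 CPM to 6.16 and 5.34 CPM (log2 change -1.19, adjusted p = 0.0142). The chemokine CCL4, whose counts can be shared with its near-identical copy CCL4L2, went from 5.21, 4.99 and 2.89 CPM to 1.16 and 1.13 CPM (log2 change -1.93, adjusted p = 0.0142). In both genes 8 h replicate 3 was the lowest of its group and the nearest to the 18 h libraries. The other effectors past the threshold were the adhesion molecule ICAM1 (log2 change -1.14), the stress protein GADD45B (-0.86), the caspase-8 inhibitor CFLAR (-0.79), the death receptor FAS (-0.79) and the receptor CD40 (-1.41). CFLAR and FAS act in opposite directions in cell death, CFLAR blocking the signal that FAS starts. TRAF1, a receptor adaptor, and CD83, a maturation marker, had log2 changes of -1.35 and -1.20 but did not pass (adjusted p = 0.0994 and 0.0926). SOD2 and TNFAIP8 were near 0 (0.13 and 0.04).

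Several surface receptors fell; apart from CD40 they are on none of the lists used and were picked with their values in view. CD40 (chr20:46118272-46129863), through which T cells activate B cells, was at 114, 128 and 87.8 CPM at 8 h and at 43.5 and 39.6 CPM at 18 h. The gap between the times was wide (log2 change -1.41, SE 0.243, adjusted p = 0.0089). CD80 (B7-1), a ligand of CD28 on T cells, had 15.3, 13.9 and 7.94 CPM and then 5.03 and 4.19 CPM (log2 change -1.43, SE 0.262, adjusted p = 0.0127). CD86 (B7-2), the other CD28 ligand, had 15.4, 12.1 and 9.88 CPM and then 6.74 and 6.37 CPM (log2 change -0.92, adjusted p = 0.0298). Both B7 genes were lowest in 8 h replicate 3 among the 8 h libraries, yet did not overlap between times. TNFRSF9 (4-1BB), a TNF receptor, dropped from 4.2, 4.88 and 2.43 CPM to 0.641 and 0.431 CPM (log2 change -2.85, adjusted p = 0.0043). VCAM1, an adhesion receptor, dropped from 4.4, 5.1 and 3.48 CPM to 1.04 and 1.41 CPM (log2 change -1.81, adjusted p = 0.0288). CD44 (-0.86), CD27 (-0.70), IL4R (-0.95) and the tetraspanin CD82 (-1.67) also fell.

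Cytokines, chemokines and some of their receptors were mostly lower as a list, but 1 member passed edgeR's quasi-likelihood test. Of 20, 18 could be tested: 1 fell, 17 did not pass, 17 of 18 had a negative log2 change, and the median was -1.01. The median was -0.62 without 8 h replicate 1. DESeq2 called 4 falls and limma voom with library weights 8, with 0 rises each, among 280 and 1849 genes called in all. The member that fell by edgeR's test was CXCL10, a chemokine for activated T cells. It was at 113, 68.6 and 62.2 CPM at 8 h and 30.6 and 37.9 CPM at 18 h (log2 change -1.25, SE 0.263, adjusted p = 0.0298). CXCL9, its neighbour in function, was at 203, 101 and 96.1 CPM and then at 66.8 and 71 CPM (log2 change -0.95, adjusted p = 0.0907). In both, 8 h replicate 1 was the highest library. CCL20, a chemokine outside the list, fell from 2.44, 2.74 and 0.891 CPM to 0.244 and 0.24 CPM (log2 change -3.05, adjusted p = 0.0298).

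Other large falls at 5 CPM or more were not on these lists. LAMP3 (DC-LAMP), a lysosomal membrane protein of activated antigen-presenting cells, was at 21.7, 25.4 and 19.4 CPM at 8 h and at 7.51 and 7.09 CPM at 18 h. The spread within each time was small beside the difference (log2 change -1.61, SE 0.217, adjusted p = 0.0041). ACHE, acetylcholinesterase, went from 27.5, 31.1 and 22.1 CPM to 6.5 and 6.59 CPM (log2 change -2.04, SE 0.291, adjusted p = 0.0043). IFI27, an interferon-inducible mitochondrial protein, went from 14.3, 14.2 and 10.9 CPM to 5.03 and 4.58 CPM (log2 change -1.45, SE 0.23, adjusted p = 0.0056). For these 3 genes the lowest 8 h library was more than 2 times the highest 18 h library. The cytokine IL32 (-1.86), the adhesion protein NINJ1 (-1.53), the ligand WNT10A (-1.48), the potassium channel KCNN1 (-1.53), IZUMO4 (-1.58) and the long RNA LINC00158 (-1.52) were also among the 15 largest falls at this level.

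The host transcript of miR-155 was among the falls. MIR155HG (chr21:25561909-25575168) is the primary transcript from which miR-155, a microRNA of activated B cells, is cut. It was at 97.9, 95.1 and 67 CPM at 8 h and at 37.9 and 28 CPM at 18 h. All 8 h libraries lay above both 18 h libraries (log2 change -1.40, SE 0.226, adjusted p = 0.0063). MIR3142HG, host of miR-146a, an RNA that NF-kB is known to induce, went from 7.91, 7.77 and 6.88 CPM to 4.55 and 4.6 CPM (log2 change -0.72, adjusted p = 0.0368). The mature microRNAs were not measured by this assay. The arm of miR-155 that B cells mainly use is shown with its seed, bases 2 to 8, in capitals (RefSeq, chr21:25573983-25574006, plus strand):
hsa-miR-155-5p: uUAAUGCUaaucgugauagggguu
On the list of 17 nuclear long RNAs and host genes these were the 2 falls, with 0 rises and a median log2 change of -0.21.

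Germinal centre genes moved in both directions. Of 17 tested, 2 rose, 2 fell and 13 did not pass, and the median log2 change was 0.02. MME (CD10; chr3:155024124-155183729), a surface peptidase, was at 21.2, 23.7 and 24 CPM at 8 h and at 44.8 and 46 CPM at 18 h. The libraries of each time were close to each other and the times were about 2-fold apart (log2 change 0.98, SE 0.225, adjusted p = 0.0477). With TK it did not pass by the same test (log2 change 0.69, adjusted p = 0.0861). In DMSO MME did not pass when any of the 8 h libraries was left out, or with a filter at 50 counts. MYBL1 (A-MYB), a transcription factor of germinal centre cells, was low throughout, at 0.781, 0.735 and 0.459 CPM and then 1.74 and 1.22 CPM (log2 change 1.15, adjusted p = 0.0372). SERPINA9, a germinal centre serpin, went from 10.1, 22 and 17.9 CPM to 5.34 and 7.84 CPM (log2 change -1.34, adjusted p = 0.0498). Its lowest 8 h library, replicate 1, was close to the 18 h libraries.

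Of 18 B cell identity genes 1 fell (CD40), 0 rose and 17 did not pass, with a median of -0.29. At an unadjusted p under 0.05, 8 of the 18 were lower (5.63% of all genes were) and 1 higher. DESeq2 called 3 falls on this list, and limma voom with library weights 8 falls and 1 rise. Of all 16478 genes tested, DESeq2 called 280, and voom 852 lower and 997 higher. For B cell receptor signalling none of 20 passed, with 5 lower and 0 higher at an unadjusted p under 0.05 and a median of -0.13. There, DESeq2 called 2 falls and limma voom with library weights 5, with 0 rises each. CD79B, the signalling chain of the receptor, was at 122, 175 and 150 CPM and then at 93.2 and 97.8 CPM (log2 change -0.64, adjusted p = 0.11). It was lower in each 18 h library without passing the test. IRF4, a factor of plasma cells and activated B cells, was at 922, 834 and 857 CPM and then at 678 and 674 CPM (log2 change -0.36, adjusted p = 0.303). PAX5 overlapped between the times (log2 change 0.12, adjusted p = 0.879).

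In MHC class II genes, which present peptides to T cells, 8 h replicate 1 was far from the other libraries. Of 13 tested, 1 fell, 0 rose and 12 did not pass, with a median of -0.39 that became 0.02 without 8 h replicate 1. HLA-DPA1 was at 377, 173 and 216 CPM at 8 h and at 109 and 87 CPM at 18 h (log2 change -1.38, SE 0.315, adjusted p = 0.0468). HLA-DRA was at 233, 31.6 and 41.4 CPM at 8 h and at 53.2 and 45.9 CPM at 18 h (log2 change -1.04, adjusted p = 0.817). In HLA-DRA the 18 h libraries lay above 8 h replicates 2 and 3 and below replicate 1. HLA genes resemble each other and HLA-DPA1 shares exons with HLA-DPB1, so their counts are uncertain.

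BNIP3L and KDM3A, which HIF is known to induce, rose. On a list of 32 glycolysis and hypoxia genes, 2 rose by edgeR's quasi-likelihood test (0.146% of all genes did), 0 fell and 30 did not pass. DESeq2 called 4 rises and limma voom with library weights 12, with 0 falls each. These were among 280 and 1849 genes called by those tools in all. Of the 32, 9 were higher at an unadjusted p under 0.05 (5.21% of all genes were) and the median log2 change was 0.22. BNIP3L (NIX; chr8:26382898-26505636), which tags mitochondria for removal, was at 13.3, 8.4 and 9.34 CPM at 8 h and at 26.8 and 18.1 CPM at 18 h. Both times spread widely but did not overlap (log2 change 1.12, SE 0.192, adjusted p = 0.0089). KDM3A, a histone demethylase that HIF induces, went from 33.8, 30.5 and 29.3 CPM to 48.8 and 51.3 CPM (log2 change 0.68, SE 0.121, adjusted p = 0.0098). PFKFB4, an activator of glycolysis outside the list, went from 10.7, 6.28 and 7.02 CPM to 26.1 and 16.8 CPM (log2 change 1.43, SE 0.294, adjusted p = 0.0265). BNIP3L and PFKFB4 were both highest in 18 h replicate 1 and, at 8 h, in replicate 1. With TK the glycolysis and hypoxia list had 13 positive and 19 negative log2 changes (median -0.01). There, 3 of its genes rose past the threshold, BNIP3L and KDM3A among them, and 1 fell.

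Other members of that list were higher without passing. PDK1, a pyruvate dehydrogenase kinase, had 27.8, 24.4 and 27.1 CPM and then 46.7 and 42 CPM (log2 change 0.75, adjusted p = 0.0711). MXI1, a MYC antagonist, had 20.6, 16.6 and 17 CPM and then 27.6 and 27 CPM (log2 change 0.60, adjusted p = 0.0834). HK2, the first enzyme of glycolysis, had 148, 176 and 164 CPM and then 218 and 202 CPM (log2 change 0.37, adjusted p = 0.294). In these 3 genes the libraries did not overlap between the times. CITED2, a transcriptional cofactor that restrains HIF, rose by 0.70 (adjusted p = 0.0362). The core hypoxia motif (ACGTG or GCGTG, both strands) was present upstream of 6 of 15 rises (40%), of 17 of 28 genes on the list (60.7%) and of 56.6% of all genes tested.

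KLF2, a transcription factor of resting lymphocytes, rose the most among genes of at least 5 CPM after PFKFB4. It was at 7.59, 9.13 and 13.9 CPM at 8 h and at 25.1 and 26.7 CPM at 18 h (log2 change 1.34, SE 0.236, adjusted p = 0.0091). Both 18 h libraries were nearly equal and lay far above the highest 8 h library, replicate 3. On the list of 22 quiescence and FOXO target genes KLF2 was the only 1 to pass edgeR's quasi-likelihood test, and the median was -0.03. There, DESeq2 called 3 rises and 1 fall, and limma voom with library weights 3 rises and 2 falls. The tools called 280 and 1849 genes in all. IL7R, the receptor of interleukin 7 and a FOXO target, was at 36.1, 33.9 and 25.1 CPM and then at 51.8 and 53.3 CPM without passing (log2 change 0.73, adjusted p = 0.0963). BTG1, an antiproliferative gene on the same list, was lower (log2 change -0.53, adjusted p = 0.0966).

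The remaining rises at 5 CPM or more had varied roles. STS, steroid sulfatase, went from 30.6, 22.9 and 21.5 CPM to 57.4 and 53.5 CPM (log2 change 1.15, SE 0.174, adjusted p = 0.0043). LMO4, a LIM-domain cofactor, went from 29.2, 31.2 and 33.5 CPM to 55 and 52.2 CPM (log2 change 0.78, SE 0.117, adjusted p = 0.0043). PEG10, an imprinted gene derived from a retrotransposon, went from 47.6, 35.4 and 33.9 CPM to 78 and 80.5 CPM (log2 change 1.03, SE 0.163, adjusted p = 0.0056). In all 3 the libraries of a time were tighter than the gap between times. The DNA methyltransferase DNMT3B (0.73), the myosin MYH10 (0.82), LRP4 (0.93), the WNT cofactor BCL9 (0.73), the RNA-binding protein MEX3B (0.76) and the inositol phosphatase IMPA2 (0.76) completed the 15. MUC16 had the largest log2 change of any rise (5.07) but stood at 0, 0.0223 and 0.027 CPM and then 0.397 and 0.983 CPM, so that value depends on a handful of counts.

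Genes of the cell division cycle tended to be higher at 18 h, but none passed edgeR's quasi-likelihood test. All 34 mitosis genes and all 32 DNA replication genes had a positive log2 change (49.9% of all genes did), with medians of 0.37 and 0.33. At an unadjusted p under 0.05, 10 of 34 and 11 of 32 were higher and 0 were lower (5.21% of all genes were higher and 5.63% lower). For DNA repair, 19 of 20 were positive with a median of 0.46, and 11 were higher at that level. The call depended on the tool. DESeq2 called 0 mitosis, 1 DNA replication and 0 DNA repair genes. Limma voom with library weights called 11, 21 and 15, all higher. Of all 16478 genes tested, DESeq2 called 280, and voom 997 higher and 852 lower. With TK the mitosis list had 5 positive and 29 negative log2 changes from 8 h to 18 h (median -0.15), the DNA replication list a median of 0.10 and the DNA repair list one of 0.19, with 0 genes past the threshold by edgeR. The difference from DMSO was not tested for the lists. In U2932 in DMSO, where the 18 h group is 1 library, most members were also higher at 18 h. Positive log2 changes were found for 31 of 32 DNA replication (median 0.35), 30 of 34 mitosis (0.17) and 16 of 20 DNA repair genes (0.24). In the DOHH2 DMSO libraries BUB1, a spindle checkpoint kinase, was at 166, 129 and 152 CPM and then at 242 and 226 CPM (log2 change 0.65, adjusted p = 0.166). MKI67, the proliferation marker, was at 367, 285 and 291 CPM and then at 432 and 485 CPM (log2 change 0.55, adjusted p = 0.402). In both, 8 h replicate 1 was the 8 h library nearest to 18 h, most so for TUBB, a beta tubulin, with 545, 202 and 308 CPM and then 632 and 618 CPM. The medians for mitosis ran from 0.25 without 8 h replicate 2 to 0.48 without 8 h replicate 1.

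**Figure D3:**
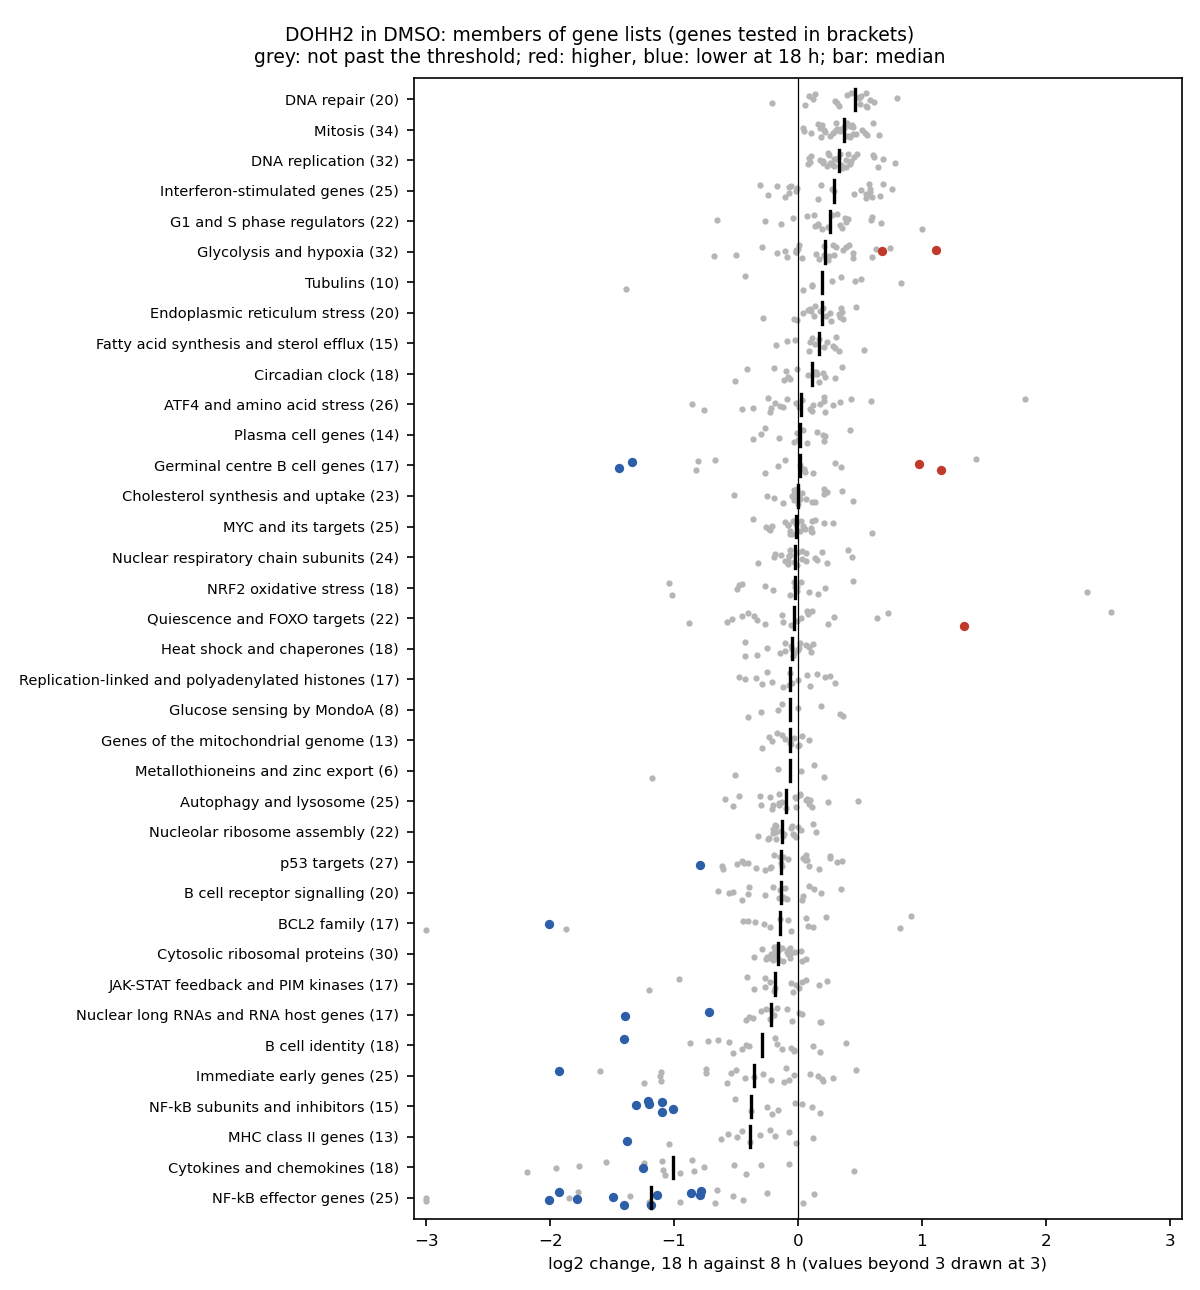
Each row is a gene list with the number of members tested in brackets, each point a member's log2 change from 8 h to 18 h on the x axis, and the bar the list median; members past the threshold are red (higher) or blue (lower). The NF-kB effector list has the lowest median (-1.19) and the DNA repair list the highest (0.46), which holds 0 genes past the threshold.

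The interferon-stimulated genes on the list used did not pass either. Of 25, 0 rose and 0 fell by edgeR's quasi-likelihood test, while 2 were higher by DESeq2 and 10 by limma voom with library weights. Those tools called 280 and 1849 of all 16478 genes tested. A positive log2 change was found for 16 of the 25 (49.9% of all genes had one), and the median was 0.29. At an unadjusted p under 0.05, 10 were higher and 0 lower (5.21% of all genes were higher and 5.63% lower). OAS2, an RNA sensor, was at 211, 188 and 156 CPM and then at 311 and 239 CPM (log2 change 0.57, adjusted p = 0.181). The highest library was 18 h replicate 1, and without it the list median was 0.08. IFI27, an interferon-inducible gene outside this list, fell (log2 change -1.45). With TK 7 of the 25 listed genes rose past the threshold and 0 fell (median 0.51). In U2932 in DMSO, with 1 library at 18 h, 22 were positive and 3 negative (median 0.28). Target genes of p53 did not move as a group: 1 of 27 fell (FAS), 0 rose and the median was -0.13. Of 25 immediate early genes, 1 fell by edgeR's test (CCL4) and 24 did not pass, with a median of -0.36. There, DESeq2 called 4 falls and limma voom with library weights 8, with 0 rises each. DUSP5, a phosphatase that ends ERK signals, came nearest to passing edgeR's test (35.9, 51.8 and 35 CPM, then 19.4 and 18.6 CPM, log2 change -1.11, adjusted p = 0.0508).

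Of the remaining lists, only the BCL2 family held a gene past the threshold, BCL2A1, with a median of -0.14 over 17 genes. In the others edgeR's test called 0. Endoplasmic reticulum stress genes were mostly higher (17 of 20, median 0.19). At an unadjusted p under 0.05, 4 of the 20 were higher (5.21% of all genes were). HYOU1, a chaperone of that compartment, was at 318, 314 and 312 CPM and then 421 and 449 CPM (log2 change 0.47, adjusted p = 0.222). Cytosolic ribosomal proteins were mostly lower (27 of 30, median -0.16), but 0 were at an unadjusted p under 0.05. G1 and S phase regulators had a median of 0.26, with 6 of 22 higher at that level, and tubulins one of 0.20, with 3 of 10 higher. Medians above 0 were also those of fatty acid synthesis (0.17), the circadian clock (0.11), plasma cell genes (0.02) and ATF4 and amino acid stress (0.02). Medians below 0 were those of JAK-STAT feedback (-0.19), nucleolar ribosome assembly (-0.13), autophagy and lysosome (-0.10), metallothioneins (-0.07), glucose sensing by MondoA (-0.06), the mitochondrial genome (-0.06), histones (-0.06), heat shock (-0.05), NRF2 (-0.02), the nuclear respiratory chain (-0.02) and MYC and its targets (-0.02). Cholesterol synthesis had 11 genes higher and 12 lower. In these lists 0 to 3 genes were at an unadjusted p under 0.05 in either direction. DESeq2 called 1 rise each in the G1 and S phase, MYC, fatty acid and respiratory chain lists and 1 fall in heat shock. Limma voom with library weights called more: 10 rises of 22 in G1 and S phase regulators, 4 rises and 1 fall each in tubulins and endoplasmic reticulum stress, and 0 to 4 genes in either direction in each of the others. Over all 16478 genes tested, DESeq2 called 280, and voom 997 rises and 852 falls.

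Markers of other cell types were mostly too low to test: 6 of 10 T cell, 3 of 6 NK cell, 5 of 10 myeloid, 1 of 8 erythroid and platelet and 9 of 12 stromal and epithelial markers could be. None passed edgeR's quasi-likelihood test. DESeq2 called 1 rise among T cell and 1 among stromal and epithelial markers, and limma voom with library weights 1 T cell rise and 1 stromal fall. These were among 280 and 1849 genes that the tools called of all 16478 tested. CD3D had 0 counts in all 5 libraries. Summed over its list, the T cell level was 26.37 to 37.44 CPM at 8 h and 52.73 to 54.52 at 18 h, nearly all of it IL7R. The myeloid sum was 0.1302 to 1.069 and then 0.6231 to 1.099 CPM, and the NK cell sum 1.069 to 2.051 and then 0.695 to 1.343 CPM. The erythroid and platelet sum was 0.06511 to 0.2005 and then 0 to 0.1678 CPM. For stromal and epithelial markers the sum was 17.3 to 29.76 CPM and then 12.46 to 14.4 CPM, most of it COL1A1 at 8 h (22.6, 15.3 and 11.3 CPM, then 5.28 and 4.96 CPM). The part of these markers in the results was not tested. As these are bulk samples, fewer cells of a type and less RNA per cell cannot be told apart.

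Most of these genes also moved in the same direction in DOHH2 cells that received TK, in libraries not shared with the DMSO comparison. In TK 18 h against 8 h, 258 genes passed (1.57%), 112 higher (0.68%) and 146 lower (0.886%). Of the 80 falls in DMSO, 78 were also lower with TK and 40 passed there, which is 50% of the DMSO falls and 27.4% of the TK falls. The exceptions in direction were MIR3142HG (0.13) and SYT11 (0.21), the latter under 0.5 CPM in every DOHH2 library shown here. The falls had a median log2 change of -1.32 in DMSO and -0.83 with TK. All 24 rises were also higher with TK and 10 passed there, which is 41.7% of the DMSO rises and 8.93% of the TK rises, with medians of 1.003 and 0.635. Since the genes were chosen by their change in DMSO, the DMSO medians are a description and the smaller values with TK are not a test of a difference. BCL2A1 changed by -2.01 in DMSO and -1.98 with TK, NFKBIA by -1.10 and -0.83, and KDM3A by 0.68 and 0.68. TNFAIP3 did not pass with TK (-0.58, adjusted p = 0.161), nor did FAS (-0.14, adjusted p = 0.624) or KLF2 (0.63, adjusted p = 0.134). Over the 9862 genes whose mean log2 level was 2 or more, the changes with time in DMSO and with TK had a Pearson's r = 0.613 and a Spearman's rho = 0.625, across genes, which are not independent replicates. The number of genes past the threshold with TK depended on single libraries. It was 36 and 47 when 8 h replicates 2 and 1 were left out, 1268 when 8 h replicate 3 was, and 100 and 96 when 18 h replicates 2 and 3 were. Leaving out both replicate 1 libraries gave 115.

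Few genes passed a test of whether their time change differed between DMSO and TK. In this test of the difference itself 2 genes passed (0.0121%), SESN1 and CYP4F3. SESN1, a p53 target that restrains mTORC1, was at 13.9, 14.5 and 12.3 CPM and then 12.2 and 12.7 CPM in DMSO. With TK it was at 13, 13.1 and 14.2 CPM and then at 28.5, 28.2 and 26.7 CPM. So the DMSO libraries overlapped and the TK libraries did not, and the difference of the log2 changes was -1.18 (SE 0.192, adjusted p = 0.0408). None of the 104 genes passed this test, and 17 of them were at an unadjusted p under 0.05 (4.32% of all genes were). They were chosen by the DMSO change, which is a term of the difference, so nothing is read from that share. The count of 2 became 0 in 9 of the 11 fits that each left out a library, 1 when DMSO 18 h replicate 3 was left out, and stayed 2 when TK 18 h replicate 2 was.

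**Figure D4:**
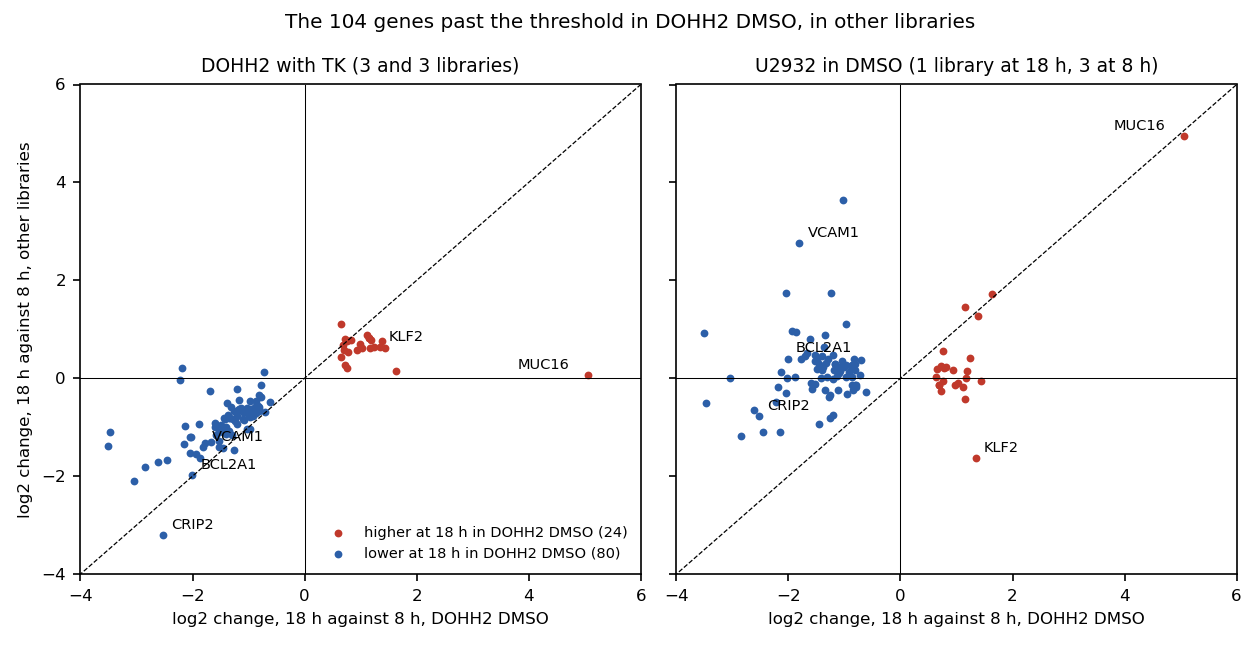
The 104 genes past the threshold, with their log2 change from 8 h to 18 h in DOHH2 DMSO on the x axes and in other libraries on the y axes (left DOHH2 with TK, right U2932 in DMSO); the dashed line marks equal change. With TK, 78 of 80 falls (blue) and 24 of 24 rises (red) share their sign, and in U2932 28 of 80 and 14 of 24 do.

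For U2932 in DMSO the 18 h group is a single library, assumed to vary like the other groups. That library held 0 CPM of IGKV3-20, an antibody light chain segment at 588 to 639 CPM in the 8 h libraries of the line. In U2932 6 genes passed (0.0364%), and 2 without 8 h replicate 1, 2 without replicate 2 and 1 without replicate 3. Of the 80 DOHH2 falls 28 were also lower in U2932, with a median log2 change of 0.14, and of the 24 rises 14 were also higher, with a median of 0.09. Of the 104 genes, 26 were under 0.5 CPM on average in U2932, so their direction there rests on few counts. Among the 78 others, 21 of 59 falls and 10 of 19 rises shared the sign. The correlation over 9862 genes was r = 0.0131 (rho = -0.0304). The difference between the lines passed for 2 genes (0.0121%), of which 1 was among the 104. This was BCL2A1, at 112, 166 and 172 CPM and then 198 CPM in U2932 against 33.9, 28.9 and 19.1 CPM and then 7.45 and 6.11 CPM in DOHH2. The difference of the log2 changes was -2.41 (SE 0.397, adjusted p = 0.0478). This count was 0 without DOHH2 DMSO 18 h replicate 1 and without U2932 8 h replicate 3, and 1 without DOHH2 18 h replicate 3 or 8 h replicate 2 or U2932 8 h replicates 1 or 2. KLF2 was at 0 to 0.109 CPM in the U2932 DMSO libraries, too low for its change to be read.

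**Figure D5:**
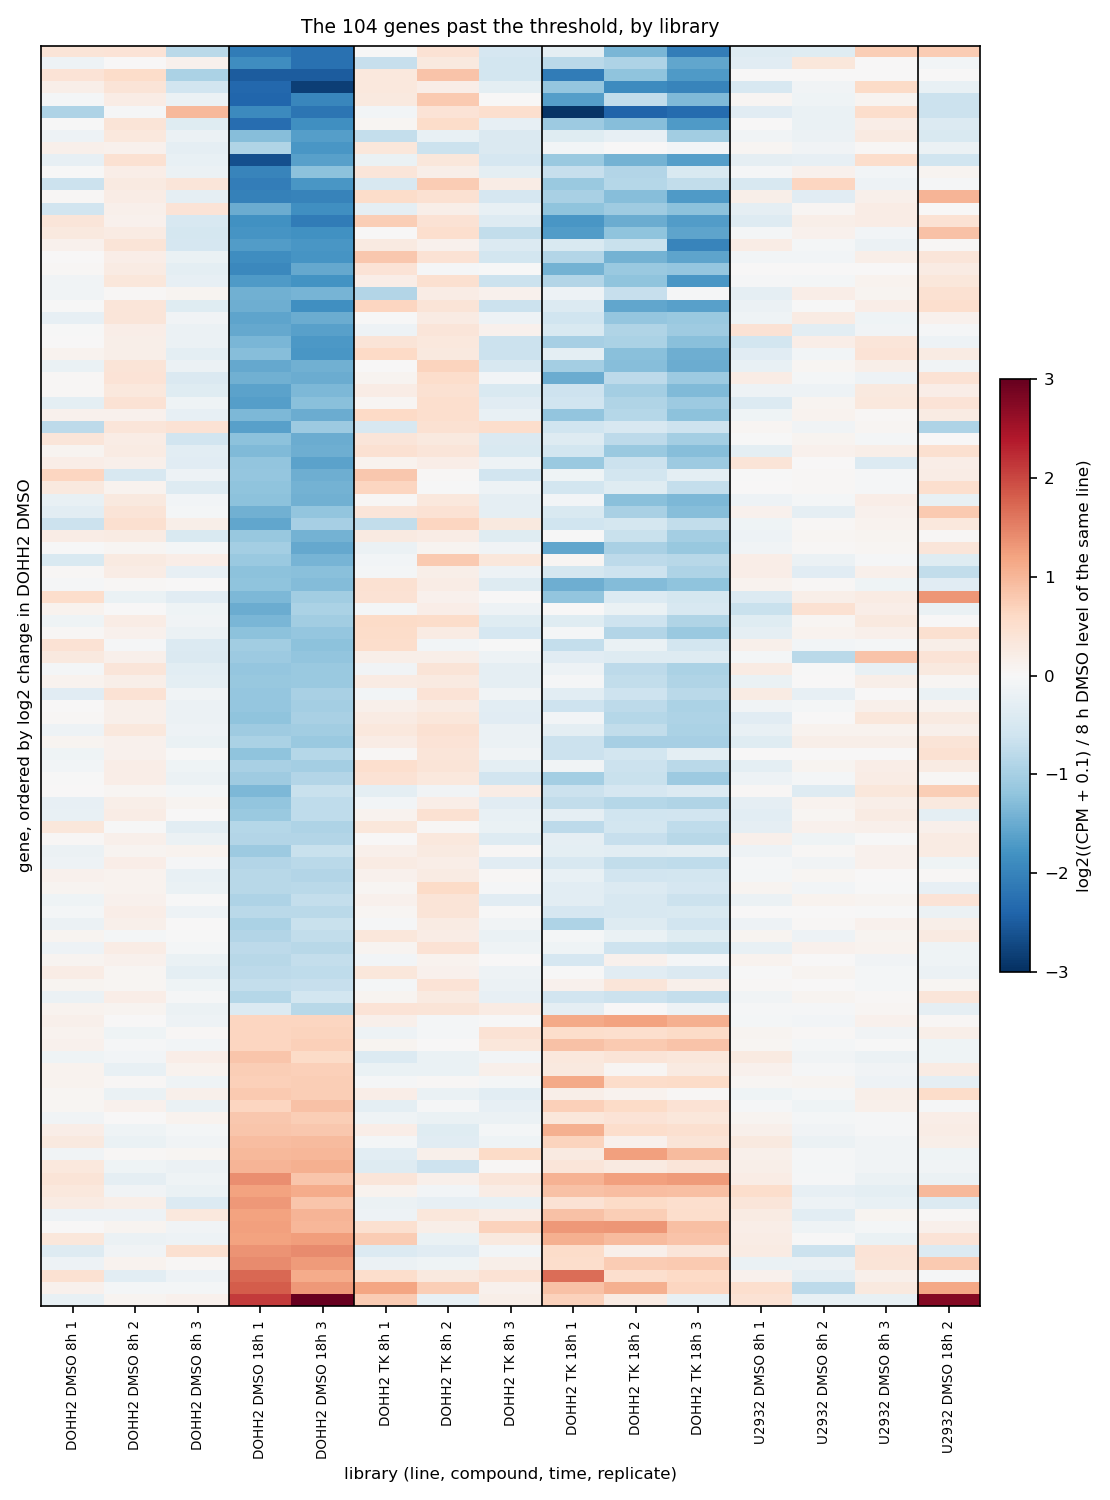
Rows are the 104 genes past the threshold, ordered by their log2 change in DOHH2 DMSO, and columns are libraries by line, compound, time and replicate; colour is the log2 ratio of CPM + 0.1 to the mean of the same line's DMSO libraries at 8 h. The 2 DOHH2 DMSO libraries at 18 h show each gene on one side, the 3 TK libraries at 18 h mostly the same side more faintly, and the single U2932 library at 18 h mixed colours.

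Several named genes share exons with a neighbour, and whether the counting used strand is not stated in the sources at hand. Reads of such a pair cannot be told apart. This applies to FAS with ACTA2, ICAM1 with AC011511.5, CFLAR with CFLAR-AS1, CD27 with TAPBPL and CD27-AS1, CD80 with TIMMDC1, TNFAIP3 with AL357060.1, NFKBID with AD000864.1, PEG10 with SGCE, MYH10 with NDEL1, SERPINA9 with AL132708.1 and BNIP3L with SDAD1P1.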

How the data were processed

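Per the labels, polyadenylated RNA of the 20 libraries was sequenced. The deposited values are raw counts of reads per gene (58288 genes and 5 summary rows per library). Per the submitters' processing notes the authors used STAR, HTSeq and edgeR with GRCh38.p10; for the tool versions, annotation release and strand setting the entry is: not given in the sources used here. The 5 summary rows were dropped. A single edgeR 4.0.16 model (R 4.3.3, TMM scaling, robust quasi-likelihood) held the 20 libraries as 8 groups. Genes were kept at 0.288 CPM (10 counts in the median library) in at least 3 libraries, so 16478 were tested of the 34160 with a count anywhere. P-values were adjusted by Benjamini-Hochberg over all genes kept (threshold 0.05), and SE come from the fitted statistic. Depth limits genes with few counts: 3 counts are 0.0668 to 0.0976 CPM. The fit of this contrast was also run on simulated counts, drawn independently for each library with no effect shared between same-numbered libraries. Its outcome is not printed, and it gives no error rate for the real libraries.

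Replicate pairs differed by more than counting noise, so none was merged. The numbers pair 2 libraries per time, and the labels do not say that a number marks a shared culture.

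Genes named are the 15 largest rises and falls of at least 5 CPM whose groups did not overlap, up to 6 members per list with the smallest p and at least 1 CPM (not all are printed), defining B cell markers, and genes of at least 5 CPM past the threshold in the differences. All other named genes were picked with their values in view. Some genes that the rule selects are not reported here. The comparison, the 42 lists and the rule were chosen with earlier results of these data known. Gene positions are those of GENCODE v29 (GRCh38). Promoters and miR-155 are from RefSeq (GRCh38.p14). The alternatives tried were DESeq2 1.42.0, RLE scaling, a replicate block, fewer libraries in the model, each library left out, and the filter removed or set at 50 counts. Fits without both TK replicate 1 libraries of DOHH2, with limma 3.58.1 voom and library weights, and without single TK or U2932 libraries, and the counts per list by DESeq2 and voom, were chosen after seeing the data.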

Additional observations from a re-analysis of the deposited data

Results flagged for a closer look

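In a test of the difference itself, 4 time changes differed between groups. The log2 change of SESN1 with time was lower in DMSO than with TK by a difference of -1.182 (SE 0.192, edgeR's quasi-likelihood test, adjusted p = 0.0408). For CYP4F3, a fatty acid hydroxylase chosen after its values were seen, the difference was -3.618 (SE 0.534, adjusted p = 0.0408). CYP4F3 was at 1.17, 1.38 and 1.27 CPM and then 0.275 and 0.839 CPM in DMSO, and at 1.04, 1.2 and 1.52 CPM and then 9.74, 4.93 and 6.3 CPM with TK. Its counts are uncertain because related CYP4F genes are similar. For BCL2A1 the change in DOHH2 minus that in U2932, both in DMSO, was -2.415 (SE 0.397, adjusted p = 0.0478). The U2932 18 h arm is 1 library, with its spread taken from the other groups. For IGKV3-20, also chosen after its values were seen, it was 17.4 (SE 2.39, adjusted p = 0.0143). It rests on that same library, with 0 CPM against 637, 639 and 588 CPM at 8 h, while the DOHH2 DMSO libraries had 0 to 0.488 CPM, so the fitted size is no bound. In fits that left out 1 library, the number of genes past the threshold for DMSO minus TK was 0 to 2, and for DOHH2 minus U2932 0 to 3.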

How the results depend on the processing

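The count of 104 genes for DMSO 18 h against 8 h was 104 with RLE scaling (103 shared) and 96 with a filter at 50 counts. It was 445 with no filter, 43 with the DOHH2 libraries only, 235 with the 5 libraries only, 280 with DESeq2, and, as alternatives chosen after seeing the data, 303 without both TK replicate 1 libraries and 1849 with limma voom and library weights. In the last, 997 genes were higher and 852 lower, against 24 and 80. Of the 104 genes, 104, 42, 91, 99, 104 and 104 were among these. Leaving out 1 DMSO library of DOHH2 gave 0 to 138 genes. With the replicate block it was 130 (83 shared). Same-numbered libraries had correlated deviations (0.431 and 0.323, 2 pairs). With 2 libraries at 18 h their deviations mirror each other, so the 2 values are not independent. The number alone does not make a pair.

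With no filter, TK 18 h against 8 h gave 861 genes, U2932 332, DMSO minus TK 58 and DOHH2 minus U2932 295. DESeq2 gave 880, 148, 7 and 128. The filter at 50 counts gave 1 gene for each difference, the line's libraries only 0 for DMSO minus TK, and the compared groups only 0 and 105. The replicate block gave 14 for U2932, 4 for DMSO minus TK and 5 for DOHH2 minus U2932. Without both TK replicate 1 libraries, TK gave 115 and DMSO minus TK 0. Leaving out 1 library gave 36 to 1268 for TK, 1 to 2 for U2932, 0 to 2 for DMSO minus TK and 0 to 3 for DOHH2 minus U2932. The 15 largest rises and falls, and the genes of at least 5 CPM named for the differences, never changed direction in the fits run. Of their values, 316 kept their side of the threshold and 118 lost the call. List members and B cell markers named by the rule are not in these counts. The cause of these shifts was not tested. With 2 libraries at 18 h, depth and replication limit what could be called.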
